A study of Mus musculus with 12 samples.

Results

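The chemokine receptors Ccr1, Ccr2, Ccr7, Ccr8, Ccr9, Cxcr3, Cxcr4, Cxcr6 and Cx3cr1 were followed through 12 RNA-seq libraries of sorted mouse melanoma. They are the rows of the deposited count table with these 9 gene names, of 54532 genes in the table, and the choice used no measured value. B16F10, a pigmented melanoma line of mouse origin and here wild type, was injected intradermally in each leg of male hosts 8 to 12 weeks old. The 6 iKO libraries came from hosts of genotype Trex1 fl/fl-R26CreERT2-ki/wt, in which both copies of Trex1, a gene for a DNA-degrading enzyme of the cytosol, are floxed. The 6 Ctrl libraries came from Trex1 wt/fl-R26CreERT2-ki/wt hosts, which keep 1 unfloxed copy and carry the same Cre recombinase. This Cre is expressed from the Rosa26 locus, which is active in most cell types, and tamoxifen activates it. The implanted cells, labelled wild type, carry no floxed allele. Every host was given tamoxifen, 1 mg daily on 3 days starting at day 5, with harvest at day 14. Cells were sorted against CD45 (leukocytes) and CD31 (endothelium) before RNA was extracted, although the protocol's wording ("or") does not settle whether a cell had to lack both markers. The comparison asks what loss of Trex1 in the host changes in the tumour. The labels do not tie libraries to mice, and 1 mouse could have given 2 tumours, so p-values measure only the spread between these libraries.

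Chemokine receptors are G-protein-coupled receptors that steer cells along gradients of small secreted proteins, the chemokines. CC receptors bind chemokines whose first cysteines are adjacent, CXC receptors those with 1 residue between them, and Cx3cr1 binds the membrane-anchored chemokine fractalkine. Most of them are leukocyte genes: the set of receptors a monocyte, dendritic cell, T cell or natural killer (NK) cell carries determines which tissues it enters. In tumours, Ccr2 is known for the recruitment of monocytes, Cxcr3 and Cxcr6 for that of effector T cells, Ccr8 as a marker of regulatory T cells and Ccr7 for the migration of dendritic cells to lymph nodes. B16F10 cells themselves have been described as expressing Cxcr3.

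The libraries held 29.8 to 35.5 M deposited counts in iKO and 34.3 to 45.8 M in Ctrl. Trex1 had 0 counts in all 12 libraries, so the genotype labels could not be checked with it. Despite the sort, Ptprc, which encodes CD45, was at a lowest, median and highest 17.4, 198 and 345 CPM (counts per M of the TMM-scaled library total) in iKO and at 0.158, 0.542 and 15.6 CPM in Ctrl. A pair of libraries stood apart from their groups: iKO 1 had the lowest and Ctrl 5 the highest Ptprc value of its group. Xist, which marks female cells, was at 219 CPM in iKO 2 and 117 CPM in iKO 3, against the male label, and 8.39 CPM in iKO 4; the remaining 9 libraries had at most 1.18 CPM. Markers of B cells summed to 3.94 to 36.6 CPM in iKO and 0.304 to 3.20 CPM in Ctrl, those of neutrophils to 1.45 to 47.7 CPM in iKO and 0.0527 to 5.77 CPM in Ctrl, and those of NK cells to 2.97 to 58.6 CPM in iKO and 0.320 to 2.18 CPM in Ctrl. Ms4a1, a marker of B cells, and Ly6g and Ngp, markers of neutrophils, were at 0 in all Ctrl libraries. They were also low in iKO, with 60, 4 and 26 counts over its 6 libraries. Of the neutrophil markers, Csf3r had the highest mean in iKO, at 23.5 CPM. Endothelial markers summed to 37.3 to 87.4 CPM in iKO and 40.6 to 47.9 CPM in Ctrl. Because libraries stood apart, results are also given without Ctrl 5, without Ctrl 5 and iKO 1, or without iKO 2 and iKO 3. In bulk RNA, more cells of a type and more RNA per cell cannot be told apart.

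In iKO, 6 of the 9 receptors rose, by 21-fold (Cx3cr1) to 103-fold (Cxcr6), and none fell. Cxcr3, the only other one that passed the filter on low counts, was not called. Ccr8 and Ccr9 did not pass the filter and were not tested. Of all 16164 genes tested, 25.0% rose and 21.4% fell at the same threshold (edgeR quasi-likelihood test, adjusted p under 0.05). The median log2 fold change was 4.63 over the 7 receptors tested and 0.0228 over all genes tested. Because the filter keeps a gene that is high in only 1 group, the count over the receptors that passed is a description.

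**Figure D1:**
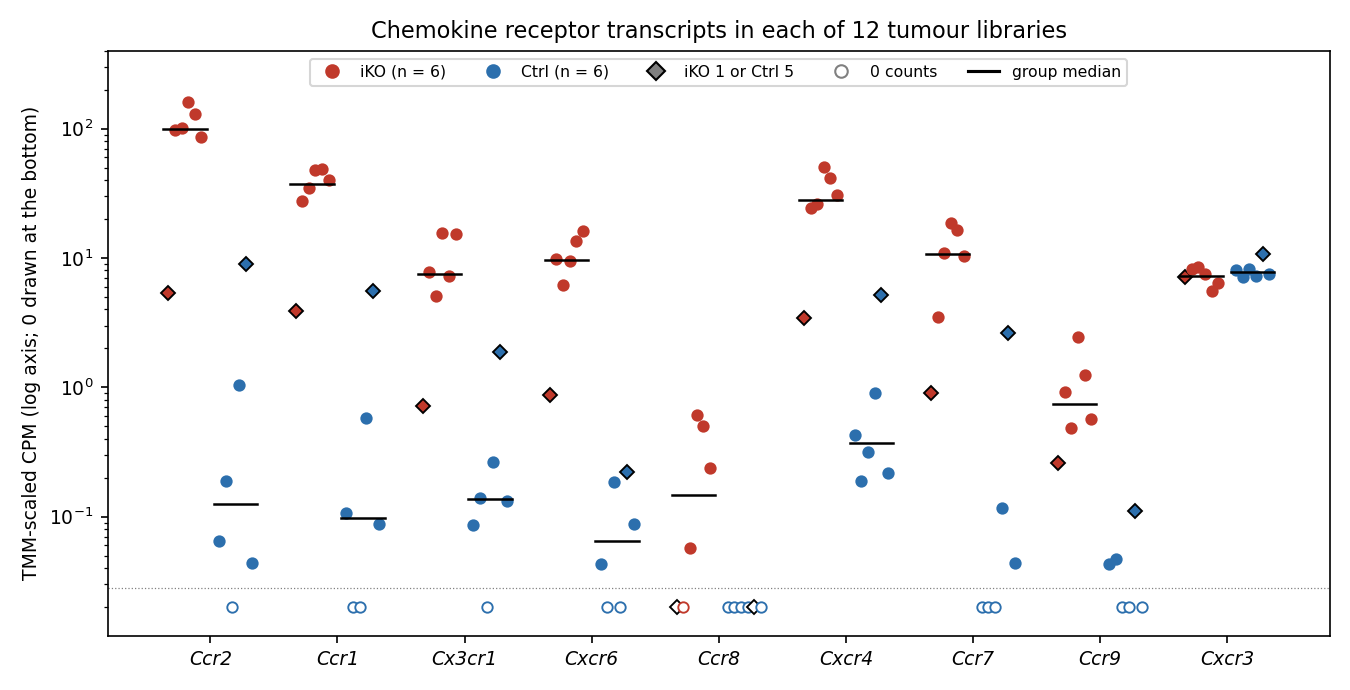
Level of each receptor in each library, in TMM-scaled CPM on a log axis, with iKO left of Ctrl. Bars are group medians where above 0.028 CPM, open symbols are libraries with 0 counts and diamonds mark iKO 1 and Ctrl 5, which lie between the other libraries of both groups for most receptors; Cxcr3 lies between 5.55 and 10.8 CPM in all 12.

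Of the 9 genes, 6 lie on mouse chromosome 9 (mm10). Ccr9, Cxcr6, Ccr1 and Ccr2 lie within 435 kb, from base 123678439 to base 124113557, and the ends of Cx3cr1 and Ccr8 are 22.2 kb apart, nearer the start of the chromosome. Ccr7 is on chromosome 11, Cxcr4 on chromosome 1 and Cxcr3 on chromosome X. Receptors that rose lie inside this cluster (Cxcr6, Ccr1, Ccr2) and outside it (Cx3cr1, Cxcr4, Ccr7). In GENCODE M21, 21.5% of the exon bases of Ccr9 and 1.73% of those of Cx3cr1 are shared with other genes, and the libraries did not keep strand, so some of their reads cannot be assigned. The other 7 share no exon base, although Cxcr6 lies inside the span of Fyco1.

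The promoter windows of 4 receptors are shown because these genes carry the main contrast: Cxcr6 and Ccr2 had the largest fold changes with all 12 libraries (without Ctrl 5 those of Ccr2, Ccr7 and Ccr1 were above that of Cxcr6), Cxcr4 rose with them and Cxcr3 was not called. Each is the RefSeq window (GRCm38.p6) of 250 bases before to 50 bases after the annotated start, read 5′ to 3′ on the strand of the gene; RefSeq starts need not be the ends of the deposited gene spans. The windows are chr9:123806227-123806526 on the plus strand for Cxcr6, chr9:124101933-124102232 on the plus strand for Ccr2, chr1:128592250-128592549 on the minus strand for Cxcr4 and chrX:101734098-101734397 on the minus strand for Cxcr3. Capitals mark matches to any of 6 motifs.
Cxcr6: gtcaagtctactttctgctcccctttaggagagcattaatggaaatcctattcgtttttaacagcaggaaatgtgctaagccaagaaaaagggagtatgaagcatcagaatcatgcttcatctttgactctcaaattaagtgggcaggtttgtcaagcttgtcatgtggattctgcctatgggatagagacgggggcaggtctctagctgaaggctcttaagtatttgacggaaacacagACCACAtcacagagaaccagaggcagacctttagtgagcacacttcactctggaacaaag
Ccr2: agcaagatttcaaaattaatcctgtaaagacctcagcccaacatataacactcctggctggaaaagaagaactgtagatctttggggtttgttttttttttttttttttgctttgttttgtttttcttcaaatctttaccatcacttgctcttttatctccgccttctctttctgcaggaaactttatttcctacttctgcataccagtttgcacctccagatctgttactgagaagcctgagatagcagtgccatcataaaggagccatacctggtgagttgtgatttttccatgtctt
Cxcr4: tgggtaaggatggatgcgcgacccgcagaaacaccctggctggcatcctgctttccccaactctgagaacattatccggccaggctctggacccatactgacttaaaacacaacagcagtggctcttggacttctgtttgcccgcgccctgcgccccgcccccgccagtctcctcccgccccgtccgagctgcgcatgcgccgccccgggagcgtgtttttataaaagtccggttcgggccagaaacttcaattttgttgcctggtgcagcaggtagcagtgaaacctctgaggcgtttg
Cxcr3: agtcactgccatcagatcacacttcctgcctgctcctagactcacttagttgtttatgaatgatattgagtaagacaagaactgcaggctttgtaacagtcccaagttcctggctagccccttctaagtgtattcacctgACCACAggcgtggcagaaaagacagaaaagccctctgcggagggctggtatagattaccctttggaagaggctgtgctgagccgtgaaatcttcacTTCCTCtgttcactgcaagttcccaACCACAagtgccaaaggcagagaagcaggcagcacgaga

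RefSeq windows were found for 8 of the 9 receptors, all but Ccr7. The motifs, searched on both strands, were GAAA and GAAA with any 2 bases between them (sites of interferon regulatory factors), TTC and GAA with any 3 bases between them (STAT sites), GGGA and CC with any 4 bases between them (NF-kB), GAGGAA (PU.1), TGTGGT (RUNX) and the E-box CACGTG. The RUNX letters were in 4 of the 8 windows (Ccr1, Cx3cr1, Cxcr3 and Cxcr6), against 16.8% of all 32851 windows, and Cxcr3 held them at positions 141 to 146 and 262 to 267. The NF-kB letters were in Ccr1, Ccr8 and Ccr9, against 20.7% of windows, and the PU.1 letters in Ccr1 and Cxcr3, against 28.3%. Neither the interferon motif (3.44% of windows), nor the STAT motif (8.30%), nor the E-box (7.15%) was in any of the 8. The windows of Ccr2 and Cxcr4 matched none of the 6 motifs, and their base composition differed, with 38.0% G and C for Ccr2 and 59.3% for Cxcr4. No match in these windows overlapped another. A match is a description of letters and not a binding site.

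All 3 receptors known from monocytes and macrophages rose. Ccr2 (ENSMUSG00000049103, chr9:124101950-124113557, plus strand), which monocytes need to leave the bone marrow, was at a lowest, median and highest 5.40, 100 and 161 CPM in iKO and 0, 0.126 and 8.99 CPM in Ctrl. The groups overlapped only through iKO 1, which lay below Ctrl 5, and every other iKO library was at 86.1 CPM or more. The log2 fold change was 5.86 ± 1.31 (SE; edgeR, adjusted p = 0.00438), and 8.65 without Ctrl 5. Ccr1 (ENSMUSG00000025804, chr9:123962124-123968692, minus strand), which binds several inflammatory CC chemokines on myeloid cells, was at 3.88, 37.2 and 49.0 CPM in iKO and 0, 0.0973 and 5.54 CPM in Ctrl. It overlapped through the same pair of libraries, and its log2 fold change was 5.04 ± 1.27 (SE; edgeR, adjusted p = 0.00838), and 7.86 without Ctrl 5. Cx3cr1 (ENSMUSG00000052336, chr9:119901616-120069879, minus strand), the fractalkine receptor of monocytes, resident macrophages and some effector lymphocytes, was at 0.711, 7.49 and 15.6 CPM in iKO and 0, 0.136 and 1.88 CPM in Ctrl. Here too iKO 1 lay below Ctrl 5 and above the other Ctrl libraries. The log2 fold change was 4.39 ± 1.06 (SE; edgeR, adjusted p = 0.00639), and 6.12 without Ctrl 5. The CPM ratio of Ccr2 to Ccr1, set side by side between libraries and not corrected for length, was 2.16 to 3.56 in iKO 2 to 6 and 1.39 in iKO 1, against 1.62 in Ctrl 5 and 1.80 in Ctrl 4. Ctrl 4 held only 36 counts of Ccr2 and 20 of Ccr1. In Ctrl 1 the ratio was 0.6 (3 and 5 counts) and in Ctrl 6 it was 0.5 (2 and 4 counts). Ctrl 2 and Ctrl 3 had 0 counts of Ccr1. Markers of macrophages and monocytes moved with these receptors: 11 of 13 rose, and their summed level was 294 to 2510 CPM in iKO and 23.7 to 513 CPM in Ctrl. Their part in the result was not tested.

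Of the 7 receptors tested, Cxcr6, known from effector T cells, had the largest fold change with all 12 libraries. Cxcr6 (ENSMUSG00000048521, chr9:123806475-123811760, plus strand), which binds Cxcl16 and marks effector and tissue-resident T cells, was at a lowest, median and highest 0.872, 9.69 and 16.0 CPM in iKO and 0, 0.0652 and 0.221 CPM in Ctrl. Every iKO library lay above every Ctrl library, and of the receptors tested this held for Cxcr6 alone; among all genes tested it held for 11.8%. The counts were 1830 in iKO and 21 in Ctrl, and the log2 fold change was 6.68 ± 0.86 (SE; edgeR, adjusted p = 0.000134). Without Ctrl 5, which held 8 counts, it was 7.15. Without Ctrl 5, in all 6 receptors that rose every iKO library lay above every remaining Ctrl library, which held for 14.9% of all genes tested. As the 6 were chosen by their call and Ctrl 5 was left out for its high values, this lack of overlap is no further evidence. Ccr8 (ENSMUSG00000042262, chr9:120092114-120094906, plus strand), a receptor of regulatory T cells in tumours, had 45 counts in iKO, in libraries 3 to 6 only, and 0 in Ctrl. Against a floor of 3 counts for all of Ctrl it was at least 18.4-fold higher in iKO, with no call because it did not pass the filter. Without the filter, edgeR gave Ccr8 an adjusted p of 0.00689. Markers of T cells summed to 11.8 to 194 CPM in iKO and 0.0467 to 7.03 CPM in Ctrl, and 13 of 13 tested rose. Those of regulatory T cells summed to 11.3 to 45.2 CPM in iKO and 5.32 to 6.70 CPM in Ctrl, and 5 of 5 tested rose. Foxp3, also on that list, did not pass the filter, with 187 counts in iKO and 21 in Ctrl, and its groups overlapped. Ikzf2 alone was at a mean of 10 CPM in iKO and 5.10 CPM in Ctrl, so the Ctrl sum rests mostly on this gene. The part of the T cell and regulatory T cell markers in the result was not tested.

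Cxcr3 (ENSMUSG00000050232, chrX:101731535-101734269, minus strand), the receptor of the interferon-induced chemokines Cxcl9, Cxcl10 and Cxcl11 on activated T and NK cells, was the only receptor tested that was not called. It was at a lowest, median and highest 5.55, 7.29 and 8.56 CPM in iKO and 7.15, 7.78 and 10.8 CPM in Ctrl, and the groups overlapped. The counts were 1402 in iKO and 1979 in Ctrl. Its log2 fold change was -0.18 ± 0.14 (SE; edgeR, adjusted p = 0.306), and it lay between -0.23 and -0.062 when any 1 library was left out, with no call. It was present where markers of those cells were near 0: Ctrl 2 had 7.15 CPM of Cxcr3, while the 14 T cell markers summed to 0.0467 CPM and the 7 NK cell markers to 0.327 CPM there. In the same library Ptprc was at 0.280 CPM. The highest Cxcr3 value of all, 10.8 CPM, was in Ctrl 5, the Ctrl library with the most leukocyte RNA. In iKO 2 to 6, with 159 to 345 CPM of Ptprc against 15.6 CPM in Ctrl 5, Cxcr3 was at 5.55 to 8.56 CPM. The pigment cell markers summed to 15100 to 21500 CPM in iKO and 21500 to 21900 CPM in Ctrl, with 6 of 7 called lower. Which cells the Cxcr3 reads came from was not tested.

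Cxcr4 (ENSMUSG00000045382, chr1:128588199-128592293, minus strand), the Cxcl12 receptor that is found on most leukocytes and on many tumour and stromal cells, was at a lowest, median and highest 3.42, 28.2 and 50.3 CPM in iKO and 0.187, 0.372 and 5.16 CPM in Ctrl. It and Cxcr3 were the only receptors of the set with counts in all 12 libraries. The log2 fold change of Cxcr4 was 4.63 ± 0.98 (SE; edgeR, adjusted p = 0.00331), and 6.20 without Ctrl 5. The groups overlapped because iKO 1 lay below Ctrl 5.

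Ccr7 (ENSMUSG00000037944, chr11:99144196-99155077, minus strand), which leads naive T cells and mature dendritic cells to lymph nodes, was at a lowest, median and highest 0.905, 10.6 and 18.6 CPM in iKO and 0, 0.0219 and 2.65 CPM in Ctrl. Of its 102 Ctrl counts, 96 were in Ctrl 5. Its log2 fold change was 4.46 ± 1.38 (SE; edgeR, adjusted p = 0.0223), 8.28 without Ctrl 5, and without Ctrl 4 the call was lost (adjusted p = 0.0504). Dendritic cell markers summed to 31.4 to 146 CPM in iKO and 28.5 to 43.9 CPM in Ctrl, with 6 of 7 tested rising, and their part in the result was not tested. Among them, Fscn1 was at a mean of 36.2 CPM in iKO and 22.4 CPM in Ctrl. Zbtb46 was at 8.67 CPM in iKO and 7.57 CPM in Ctrl, so the Ctrl sum rests mostly on these genes. Ccr9 (ENSMUSG00000029530, chr9:123678439-123784330, plus strand), the receptor for Ccl25 on thymocytes, gut-homing T cells and plasmacytoid dendritic cells, was at 0.258, 0.745 and 2.45 CPM in iKO and 0, 0.0214 and 0.110 CPM in Ctrl. All 6 iKO libraries lay above all Ctrl libraries, but the 187 iKO and 8 Ctrl counts did not pass the filter. Without the filter, edgeR gave an adjusted p of 9.92e-05. The count ratio of Ccr9 was 28.6 (95% counting interval 14.2 to 67.2), and 48.6 (18.7 to 180) without Ctrl 5, which held 4 of the 8 Ctrl counts.

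**Figure D2:**
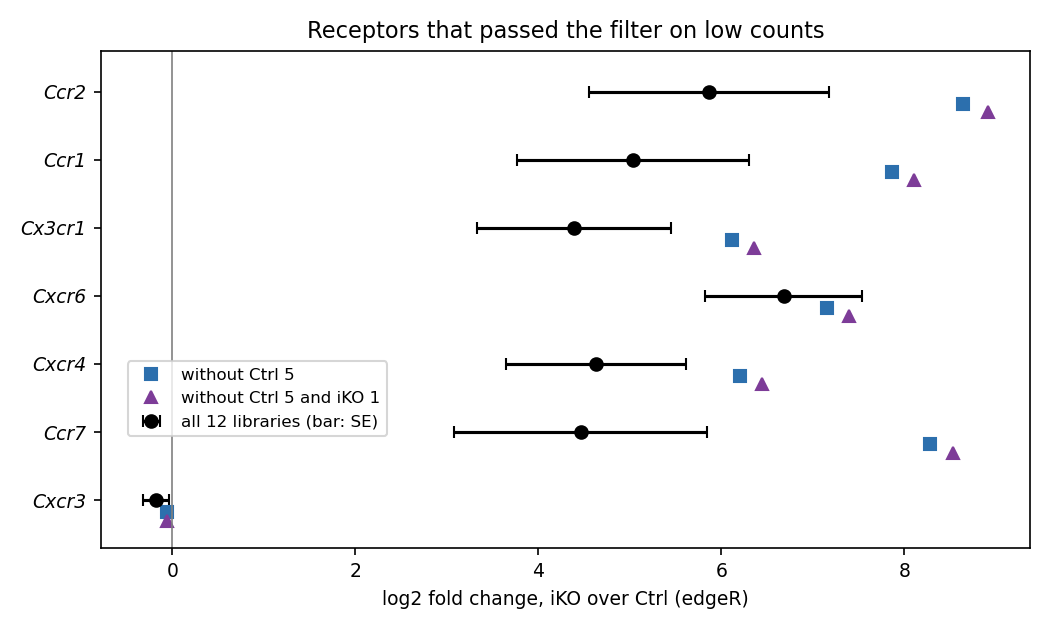
Log2 fold change of iKO over Ctrl for the 7 receptors tested, with SE for the fit of all 12 libraries, and the same without Ctrl 5 or without Ctrl 5 and iKO 1. Ccr7 moved most, at 4.46 with all libraries and 8.28 without Ctrl 5, and Cxcr3 stayed near 0 in each fit.

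Levels of different receptors were compared per gene length, as RPKM (CPM per kilobase of the listed gene length). In iKO the highest median levels were those of Cxcr4 (15.6 RPKM), Ccr2 (14.8 RPKM) and Ccr1 (13.1 RPKM), whose ranges over the 6 libraries overlapped. Ccr7 (5.38 RPKM), Cxcr6 (5.02 RPKM) and Cxcr3 (4.21 RPKM) followed and overlapped as well, then Cx3cr1 (1.66 RPKM), Ccr8 (0.125 RPKM) and Ccr9 (0.0726 RPKM). In Ctrl, Cxcr3 was highest at a median of 4.49 RPKM, with its lowest value of 4.13 RPKM above the highest of every other receptor, and Cxcr4 came next at 0.206 RPKM. The listed length of Ccr9, 10260 bases, is the longest of the set and lowers its RPKM.

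Cxcr3 therefore made up a lowest, median and highest 4.01, 7.24 and 44.2% of the summed RPKM of the 9 receptors in iKO and 43.7, 93.9 and 96.1% in Ctrl. Cxcr4 made up 20.5, 26.1 and 30.5% in iKO and 2.41, 4.12 and 20.0% in Ctrl. Ccr2 made up 8.64, 25.0 and 28.5% in iKO and 0, 0.418 and 9.33% in Ctrl. For these 3 receptors the shares of iKO 1 and Ctrl 5 lay close together.

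**Figure D3:**
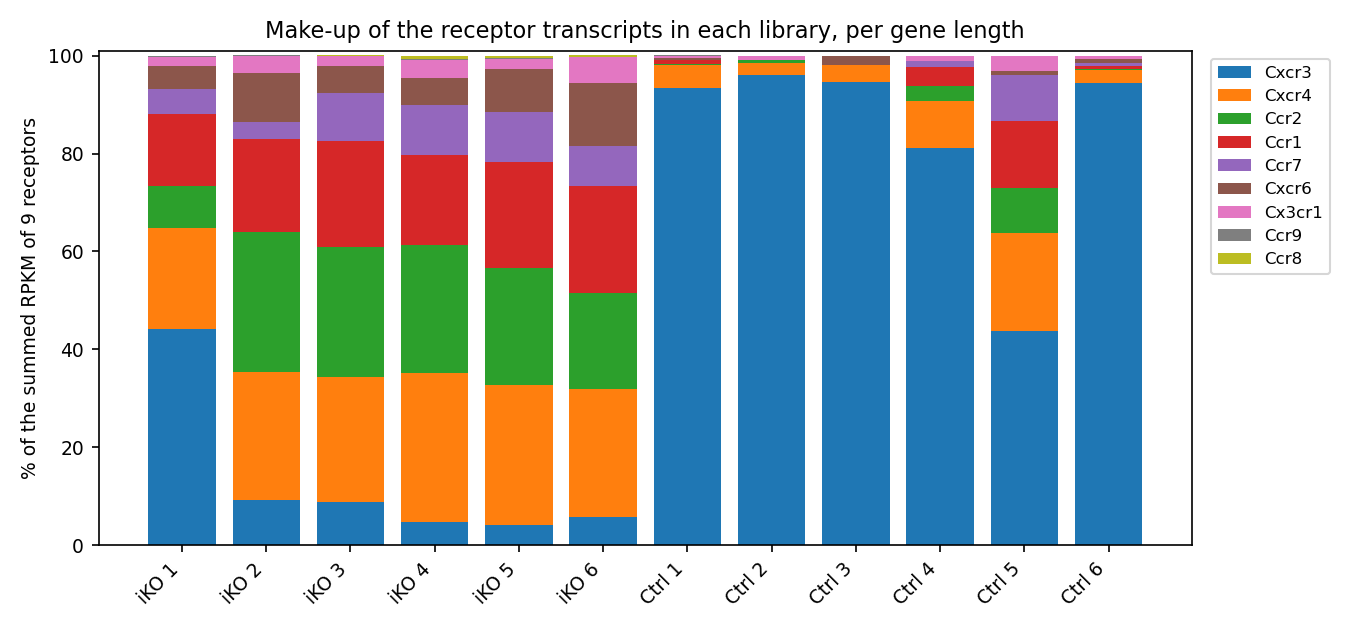
Share of each receptor in the summed RPKM of the 9 receptors, 1 bar per library, iKO left of Ctrl. Cxcr3 fills most of the bar in Ctrl 1 to 4 and 6, less than 10% in iKO 2 to 6, 44.2% in iKO 1 and 43.7% in Ctrl 5.

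Because most of these genes are leukocyte genes, each was also set against the summed CPM of 6 leukocyte genes (Ptprc, Cd53, Laptm5, Cytip, Cd48 and Cd37), which was 54.7 to 921 CPM in iKO and 2.85 to 71.5 CPM in Ctrl. Per 100 CPM of these genes, Cxcr4 was at a lowest, median and highest 4.47, 5.31 and 6.26 CPM in iKO and 6.13, 8.33 and 12.1 CPM in Ctrl, so that Ctrl 6 (6.13) lay below iKO 5 (6.19) and iKO 1 (6.26) and the groups overlapped slightly. On the log2 scale, with 0.1 CPM added to both terms, the ratio of Cxcr4 was 0.92 lower in iKO (-0.924; exact two-sided permutation test over 924 assignments, p = 0.00216, the smallest it can give, adjusted p = 0.00577 over 8 receptors). The same test gave -6.16 for Cxcr3 and -1.61 for Cx3cr1 (for both, adjusted p = 0.00577). Cxcr3 itself was at 5.55 to 8.56 CPM in iKO and 7.15 to 10.8 CPM in Ctrl. Its ratio therefore mostly restates the difference in the 6-gene sum and is not read as a change per leukocyte. For Ccr2 the test gave 1.30 (adjusted p = 0.0144), while Ccr1 (0.320, adjusted p = 0.265) and Cxcr6 (-0.599, adjusted p = 0.411) passed in neither direction.

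Only the ratios of Cxcr3 and Cxcr4 rest on counts in every library. Cxcr4 was nevertheless at only 0.187 CPM in Ctrl 2 and 0.219 CPM in Ctrl 6, so the added 0.1 CPM raised the ratios of those libraries. With nothing added its groups overlapped, so the smallest possible p of Cxcr4 depends on the added 0.1 CPM. Its medians with nothing added, 5.31 in iKO and 8.33 in Ctrl, ran in the direction of the test. For the other receptors in the test, Ctrl libraries at 0 counts take a ratio set by the added 0.1 CPM, and for Ccr7 and Ccr9 3 of the 6 Ctrl libraries were at 0. The test gave -0.898 for Ccr7 and -3.19 for Ccr9 (for both, adjusted p = 0.00693), but with nothing added the median per 100 leukocyte CPM ran the other way, at 1.83 in iKO and 0.610 in Ctrl for Ccr7 and at 0.192 in iKO and 0.0770 in Ctrl for Ccr9. No direction is therefore read for these 2 receptors. The medians of Cxcr6 (1.81 in iKO, 0.759 in Ctrl) also ran against the sign of its difference. Cx3cr1 had 0 counts in Ctrl 3, which with nothing added lay below every iKO library (0.996 or more). Its smallest possible p therefore depends on the added 0.1 CPM as well. The medians of Cx3cr1 with nothing added, 1.48 in iKO and 2.68 in Ctrl, ran in the direction of the test. With 0.5 CPM added, or with Ptprc alone as the denominator, the difference of Ccr1 turned to -0.962 or -0.854 (adjusted p = 0.00346 in both), against medians with nothing added of 6.36 in iKO and 2.74 in Ctrl, and the call of Ccr2 was lost (adjusted p = 0.472 or 0.721). Without iKO 2 and iKO 3 the call of Ccr2 was lost as well (adjusted p = 0.0698). The ratio of Cxcr4 was lower in iKO under every alternative run, with differences from -2.10 to -0.826, all with 0.1 or 0.5 CPM added. Ptprc took 31.8 to 37.5% of the 6-gene sum in iKO and 5.13 to 21.8% in Ctrl, so the make-up of the denominator differed between the groups too, and its part in the ratios was not tested.

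**Figure D4:**
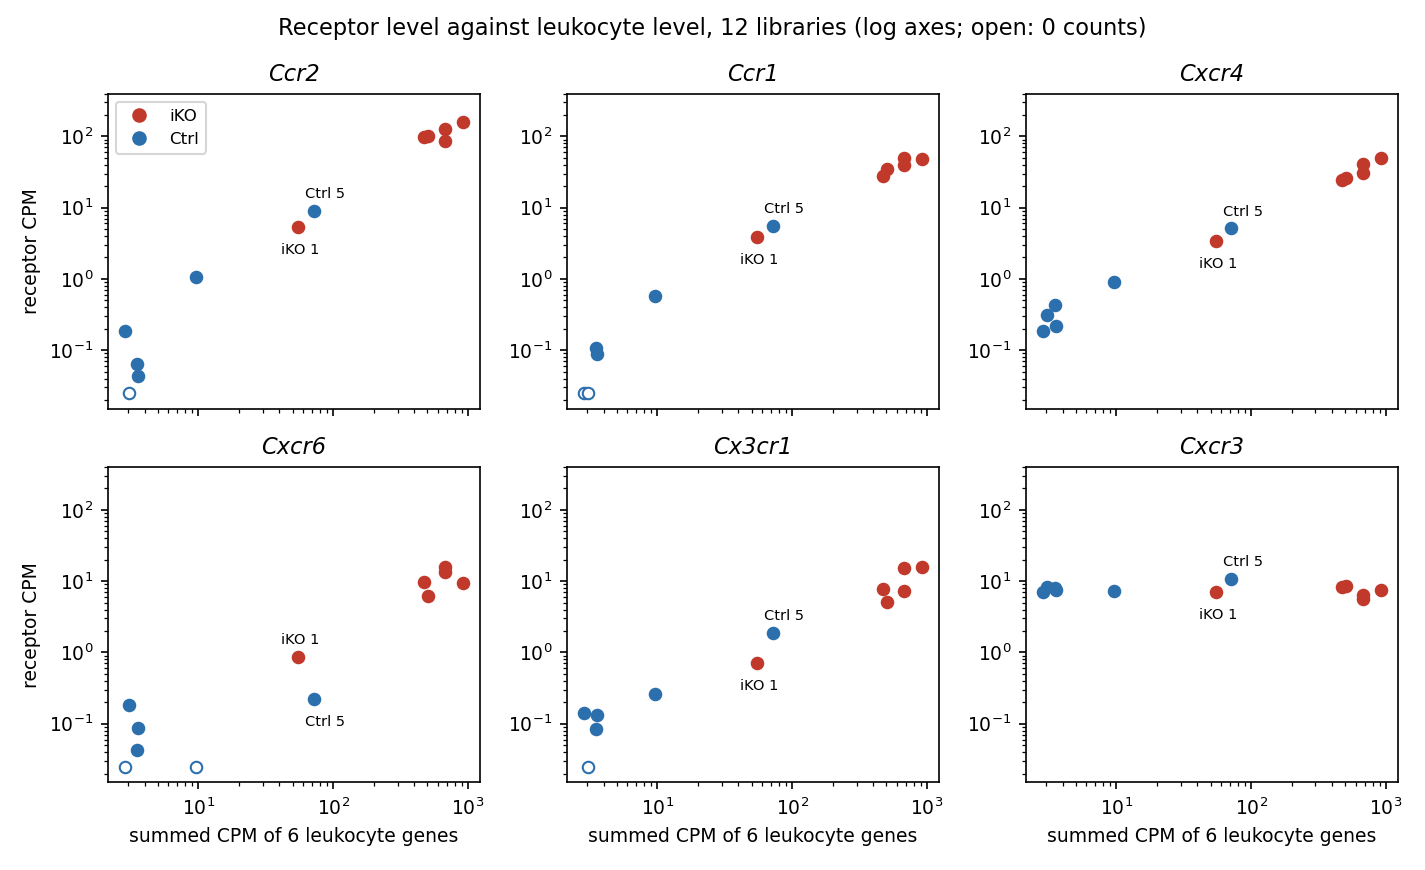
CPM of 6 receptors against the summed CPM of 6 leukocyte genes in each library, both on log axes, with open symbols for 0 counts. Ccr2, Ccr1, Cxcr4 and Cx3cr1 climb with the leukocyte level across both groups, with iKO 1 and Ctrl 5 next to each other, while Cxcr3 stays between 5.55 and 10.8 CPM.

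The libraries iKO 1 and Ctrl 5 had similar leukocyte levels, 54.7 and 71.5 CPM over the 6 genes, and allow the receptors to be set side by side, as 1 library each and with no test. Ccr2 was at 5.40 CPM in iKO 1 and 8.99 CPM in Ctrl 5, Cxcr4 at 3.42 CPM in iKO 1 and 5.16 CPM in Ctrl 5, and Ccr7 at 0.905 CPM in iKO 1 and 2.65 CPM in Ctrl 5. Cxcr6 ran the other way, at 0.872 CPM (27 counts) in iKO 1 and 0.221 CPM (8 counts) in Ctrl 5. T cell markers summed to 11.8 CPM in iKO 1 and 7.03 CPM in Ctrl 5, and macrophage and monocyte markers to 294 CPM in iKO 1 and 513 CPM in Ctrl 5.

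Among the libraries iKO 2 to 6, receptors differed in how evenly they went with the leukocyte genes. Per 100 leukocyte CPM, Cxcr4 varied 1.38-fold, Ccr1 1.42-fold and Ccr2 1.65-fold between the lowest and the highest library. Cx3cr1 varied 2.26-fold, Cxcr6 2.27-fold and Ccr7 3.25-fold. Ccr7 was lowest in iKO 2, at 0.750 per 100 leukocyte CPM against 1.53 to 2.44 in iKO 3 to 6. That library also held the most keratinocyte and fibroblast marker RNA, 167 and 14600 CPM. Cxcr6 was highest in iKO 6 (2.36) and lowest in iKO 4 (1.04), and Cx3cr1 was highest in iKO 6 (2.25) and lowest in iKO 3 (0.996).

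For each receptor tested, the protein-coding genes with the most similar pattern were taken over the 12 libraries, as the Pearson r of log2 CPM after each group's mean was removed, among 12419 genes. These values describe libraries that share depth and leukocyte content, and no p is given. The closest were Itgam (r = 0.993) for Ccr1, Cd300ld (0.994) for Ccr2, Coro1a (0.991) for Cxcr4, Snx20 (0.979) for Cx3cr1 and Trim30b (0.975) for Ccr7. Ptprc was the third closest to Ccr1 (0.983) and Cd8a the second to Cxcr4 (0.986). The closest to Cxcr6 was Armc7 (0.952), and to Cxcr3 it was Slc25a10 (0.925). Without iKO 1 and Ctrl 5 these were 0.975 for Itgam, 0.975 for Cd300ld, 0.963 for Coro1a, 0.900 for Snx20, 0.923 for Trim30b, 0.817 for Armc7 and 0.925 for Slc25a10. Between the receptors themselves, r was 0.891 to 0.953 among Ccr1, Ccr2, Ccr7, Cxcr4 and Cx3cr1, 0.479 to 0.680 between these and Cxcr6, and 0.165 to 0.399 between Cxcr3 and the other 6. These r between receptors were taken over all 12 libraries only, and the part of iKO 1 and Ctrl 5 in them was not tested.

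Most ligands of the receptors rose in iKO as well. Of 19 ligand genes 16 passed the filter, with a median log2 fold change of 3.71, and 13 rose (edgeR, adjusted p of 0.0162 or less). Of all genes tested 25.0% rose. Of the Ccr2 ligands, the monocyte attractants Ccl2 (126 ± 54.8 CPM in iKO, 9.96 ± 11.4 CPM in Ctrl; SD, n = 6 each), Ccl7 and Ccl12 had log2 fold changes of 3.67, 4.07 and 4.74, and of 4.58, 4.83 and 6.76 without Ctrl 5. The inflammatory chemokines Ccl3 and Ccl9, ligands of Ccr1, rose by 4.76 and 3.76 on the log2 scale, and by 7.46 and 5.94 without Ctrl 5, and their relative Ccl4 by 5.17, and 7.07 without it. Ccl5, another Ccr1 ligand, rose by 2.64. For Ccl6 the value was 3.28, not past the threshold (adjusted p = 0.0502 by edgeR), and it was called without Ctrl 5 (5.89, adjusted p = 0.000471) or without iKO 1 (3.51, adjusted p = 0.0406). Ccl8, which binds Ccr8 in mice, rose by 3.98, and by 5.76 without Ctrl 5. Ccl1, the other Ccr8 ligand, had 47 counts in iKO and 0 in Ctrl and did not pass the filter.

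All 3 ligands of Cxcr3 rose, while Cxcr3 itself was not called. Cxcl10 was at 215 ± 38.4 CPM in iKO and 46.9 ± 3.83 CPM in Ctrl (SD, n = 6 each; log2 fold change 2.20), Cxcl9 at 116 ± 54.7 CPM in iKO and 5.04 ± 2.66 CPM in Ctrl (log2 fold change 4.53), and Cxcl11 at 4.79 ± 1.61 CPM in iKO and 0.845 ± 0.268 CPM in Ctrl (log2 fold change 2.50). None of the 3 overlapped between groups, which held with iKO higher for 11.8% of all genes tested. Their log2 fold changes were 2.25, 4.89 and 2.50 without Ctrl 5. Cxcl16, the ligand of Cxcr6, rose by 4.65, and by 6.06 without Ctrl 5, and Cx3cl1 (fractalkine) by 1.78. Cxcl12, the ligand of Cxcr4 made by stromal cells, ranged from 2.17 to 144 CPM over iKO and from 11.5 to 13 CPM over Ctrl (log2 fold change 1.88; edgeR, adjusted p = 0.0705). It was called without iKO 6 (2.13, adjusted p = 0.0161), and its log2 fold change was 1.05 without iKO 2. Fibroblast markers ranged from 597 CPM in iKO 6 to 14600 CPM in iKO 2, and over Ctrl from 2260 to 2580 CPM. The ligand of Ccr9, Ccl25, was at 9.12 ± 1.11 CPM in iKO and 8.59 ± 0.793 CPM in Ctrl (SD, n = 6 each; log2 fold change 0.086; edgeR, adjusted p = 0.545). Of the Ccr7 ligands, Ccl19 had 3 counts in iKO and 0 in Ctrl, and Ccl21a 0 in iKO and 4 in Ctrl.

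**Figure D5:**
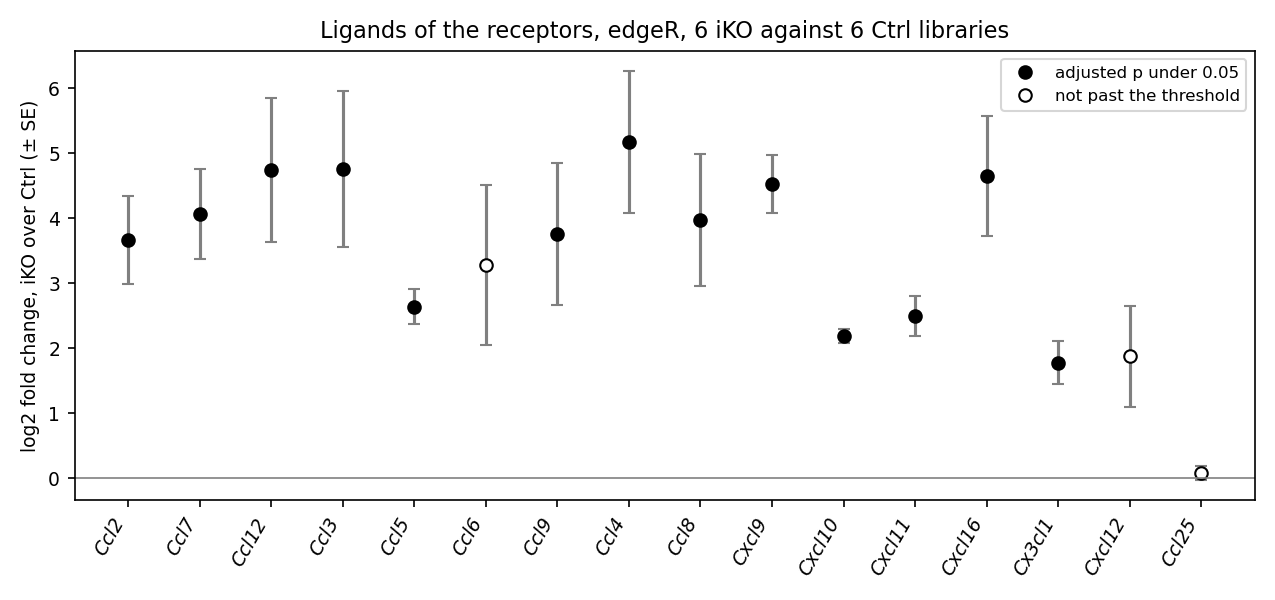
Log2 fold change of iKO over Ctrl with SE for the 16 ligand genes that passed the filter, ordered by receptor, with closed symbols for adjusted p under 0.05. All lie above 0, and Ccl6, Cxcl12 and Ccl25 are open.

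Other receptors of the family were mostly too low to test. Of 9 further chemokine receptors 3 passed the filter and 2 rose. Xcr1, a receptor of cross-presenting dendritic cells, was at 2.95 ± 1.92 CPM in iKO and 0.0838 ± 0.155 CPM in Ctrl (SD, n = 6 each), a log2 fold change of 5.18, and of 6.99 without Ctrl 5. Ccr10, a skin-homing receptor, resembled Cxcr3 in having a level in Ctrl, with 4.34 ± 1.02 CPM in iKO and 3.22 ± 1.02 CPM in Ctrl (log2 fold change 0.43; edgeR, adjusted p = 0.147). Of 4 atypical receptors tested, which bind chemokines without G-protein signalling, 2 rose: Ccrl2 (log2 fold change 3.33, and 4.03 without Ctrl 5) and Ackr1 (1.97). The call of Ackr1 was lost without any 1 of Ctrl 4, Ctrl 5, Ctrl 6, iKO 2 or iKO 5 (edgeR, adjusted p from 0.0513 to 0.0625). For the Cxcl12 scavenger Ackr3 the value was 1.14 (adjusted p = 0.152 by edgeR), and it was called without iKO 6 (1.38, adjusted p = 0.0358).

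Of 27 genes of the signalling machinery behind the receptors, 23 rose and 1 fell, against 25.0% and 21.4% of all genes tested. The median log2 fold change of the 27 was 3.48. The 4 with the smallest p were Rgs2 (1.53) and Rgs16 (1.52), which switch off G proteins, the integrin chain Itgal (5.93), which holds leukocytes to vessel walls, and the G-protein subunit Gng2 (1.26), all as log2 fold changes (edgeR, adjusted p of 0.000134 or less). None of these overlapped between the groups, which held with iKO higher for 11.8% of all genes tested. As the 4 were chosen by their p in this comparison, the lack of overlap is no further evidence. The gene that fell, named after its value was seen, was Gnb1 (-0.17; edgeR, adjusted p = 0.0141), a G-protein subunit found in nearly all cells, and its call was lost without iKO 2 and iKO 3 (adjusted p = 0.0637).

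With the log2 leukocyte level added to the model, none of the 7 receptors was called (edgeR, adjusted p of 0.243 or more). Cxcr6 kept a positive log2 fold change of 2.50 (adjusted p = 0.262), and the other 6 were negative, from -0.25 for Ccr1 and Ccr2 to -1.37 for Ccr7. In that model 3 of the 16 ligands remained called, Cxcl10 (1.75), Cxcl9 (2.64) and Ccl5 (1.31). Of the 27 signalling genes 0 were called higher and 1 lower, and of all 16164 genes 1017 were higher and 1049 lower. Outside iKO 1 and Ctrl 5 the leukocyte level was 468 to 921 CPM in iKO and 2.85 to 9.55 CPM in Ctrl, so that in these 10 libraries it cannot be told apart from the genotype. Without iKO 2 and iKO 3, the 6 receptors that rose were still called, with log2 fold changes of 4.57 to 6.78, and Cxcr3 was at -0.30 (edgeR, adjusted p = 0.129).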

How the data were processed

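The authors deposited counts per Ensembl gene, whole numbers without normalization. Per the labels' protocols, mRNA was selected by poly-T and the kit was not stranded. Per the submitters' processing notes the build was mm10. For aligner, counter and strand setting, nothing is given in the sources used here. Gene lengths are as listed in the deposited table. Of values from 1 to 10 counts 69.6% were even, against 50.1% of those from 1000 to 5000, so low counts often come in pairs and counting intervals (95%) are too narrow. They and floors of 3 counts, or 0.0655 to 0.101 CPM, cover counting error only. The chi-square per degree of freedom was at least 7.47 between libraries of 1 group, so none was counted as a repeat.

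Genes were filtered (edgeR filterByExpr, minimum count 10, minimum total 15; 16164 genes kept), scaled by TMM and tested with edgeR 4.0.16 in R 4.3.3 (quasi-likelihood, group only, Benjamini-Hochberg over all genes tested, threshold 0.05). SE is the absolute log2 fold change over the square root of F. Alternatives used DESeq2 1.42.0, limma 3.58.1 (voom), other scalings, filters and left-out libraries. The fit was tested on simulated data. Exons came from GENCODE M21, in which 98.3% of the genes found had the table's start and end.

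The receptors, gene lists and leukocyte genes were chosen with earlier results of these data known. Named were all 9 receptors, ligands and related receptors with values, the 4 signalling genes with the smallest p and the most similar genes; some genes of the lists are counted but not reported singly. Same-numbered libraries did not deviate together in every pair (r from -0.129 to 0.249), so the numbers were not taken as pairs.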

Additional observations from a re-analysis of the deposited data

Results flagged for a closer look

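In groups of 6 libraries, a value was marked where its gap to the nearest other, over the range of the group, exceeded 0.625. This met 8 of 34 groups. For independent, normally distributed values chance gives about 1 in 20. These groups share the same 12 libraries and most receptors vary together, so the observed share cannot be set against that rate. In CPM, all 6 were high values of Ctrl 5, with a gap of 0.895 of the range for Ccr1, 0.883 for Ccr2, 0.956 for Ccr7, 0.690 for Cxcr3, 0.856 for Cxcr4 and 0.860 for Cx3cr1. Per 100 leukocyte CPM, Ctrl 5 was high for Ccr7 (0.668) and iKO 1 was high for Cxcr3 (0.923, at 12.9 against 0.815 to 1.75 in the other iKO libraries).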

How the results depend on the processing

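The number of receptors called was 6, all higher in iKO. It was within 1.5 times of that under every alternative run except the leukocyte level as covariate, where it was 0. Leaving out 1 library gave 6 to 7, with Ccr9 tested and called in some of these fits and Ccr7 lost without Ctrl 4. Under that covariate the log2 fold changes turned to -0.2468 for Ccr1, -0.2499 for Ccr2, -1.37 for Ccr7, -0.2942 for Cxcr4 and -1.003 for Cx3cr1. The call of Ccr2 was lost with limma voom (log2 fold change 8.42, adjusted p = 0.0996). Without the filter on low counts, and with DESeq2, Ccr8 and Ccr9 were called too. The number of ratios to leukocyte genes past the threshold was 6, 6 without any 1 library, and 5 without iKO 2 and iKO 3. It includes Ccr7 and Ccr9, whose sign is set by the added 0.1 CPM, so it shows no stability of a direction for them. It also includes Cxcr4 and Cx3cr1, whose p depends on the added 0.1 CPM, and Cxcr3, whose ratio mostly restates the 6-gene sum. The sign of the ratio difference turned for Ccr1 with Ptprc alone (-0.854) or 0.5 CPM added (-0.962), where Cxcr6 gained a call (-2.13, adjusted p = 0.0297). With the replicate block, 6 receptors were called by edgeR, and 6 ratios in a sign-flip test; it changed no call. Other scalings moved the median log2 fold change of all genes by 0.00873 or -0.0287. Counts of Ccr8 and Ccr9 and those of most receptors in Ctrl limit the precision of their folds.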
